A study of Mus musculus with 49 samples.

Results

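Transcripts of the cytoplasmic actins and of the tubulins used in neurons were followed here through 3 ways of isolating RNA from medium spiny neurons (MSNs) of the mouse nucleus accumbens. The 10 genes were taken by name and not by their values: the actins Actb and Actg1, the alpha-tubulins Tuba1a, Tuba1b and Tuba4a, and the beta-tubulins Tubb2a, Tubb2b, Tubb3, Tubb4a and Tubb5. They are 10 of the 52636 genes counted, and all 10 passed the filter on low counts in every comparison. The MSNs expressed either the dopamine receptor Drd1 (D1-MSNs) or Drd2 (D2-MSNs).

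Actin polymerizes into the filaments that shape dendritic spines, and alpha- and beta-tubulin form the dimers from which microtubules of axons and dendrites are built. These mRNAs are abundant in neurons, and most of their copies lie in the cytoplasm, where they are translated. A purified nucleus holds mainly their newly made and not yet exported copies, which is why their level in nuclear RNA bears on how much cytosol came along. Cells also adjust tubulin mRNA to the supply of free dimers: a factor that includes Ttc5 reads the first residues of a tubulin chain as it leaves the ribosome and sets off decay of the mRNA.

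All mice were of strain C57BL/6J, their ages were not given in the sources used here, and the study's methods give every sample as a separate mouse. For nuclear-FACS, nuclei of male Drd1-cre or Drd2-cre mice crossed to Thy1-loxPSTOPloxP-EGFP-F, which gave a nuclear GFP label, were sorted from frozen tissue after a sucrose gradient (6 D1 and 5 D2 libraries). For whole cell-FACS, cells of male mice with a cytoplasmic fluorophore under the Drd1 or Drd2 promoter were sorted from fresh, papain-treated tissue (8 D1 and 6 D2). For RiboTag, Drd1-cre or Drd2-cre mice crossed to Rpl22-loxPexon4loxP-exon4-HA carried a tagged ribosomal protein in the labelled cells, and ribosomes were immunoprecipitated from fresh tissue of males (6 D1 and 6 D2) and females (5 D1 and 5 D2). The groups of nuclear and whole cell libraries therefore differ in tissue state and transgene as well as in compartment. A D2 driver can also mark cells that are not MSNs. In bulk libraries, fewer cells of a type and less RNA per cell cannot be told apart.

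Total counts ranged from 3701255 to 68777008 in nuclear, 10476223 to 27965357 in whole cell and 24076888 to 45641342 in RiboTag libraries. The lowest count of any of the 10 genes was 3, for Tuba1b in a nuclear D1 library. At most 8154682 counts were found in 4 of the 6 nuclear D1 and 1 of the 5 nuclear D2 libraries, so depth differed between the cell types. D1 and D2 markers followed the labels in whole cell and RiboTag libraries, where 5 of 5 D1 markers were lower and 5 of 5 D2 markers higher in D2-MSNs. In nuclear libraries 4 of each passed the filter: 1 D1 marker was called lower in D2-MSNs (Drd1, log2 fold change -1.75), 1 D2 marker higher (Drd2, 1.74) and 1 D2 marker lower (Penk, the precursor of enkephalin, -2.42). The summed markers overlapped between the nuclear groups, with D1 markers at 86.9 to 188 normalized CPM in D1 and 66.3 to 103 in D2 libraries and D2 markers at 485 to 1248 and 783 to 1401, so the nuclear libraries followed their labels only in part.

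How well the 10 mRNAs can be told apart depends on their sequence, so stretches of it are printed first. The 30 coding bases from each start codon follow, 5′ to 3′ on the coding strand, from the GENCODE M21 transcripts on GRCm38. Capitals mark the first 4 codons, the stretch whose product the Ttc5-dependent control reads in tubulins and which the actins do not share.
Actb: ATGGATGACGATatcgctgcgctggtcgtc
Actg1: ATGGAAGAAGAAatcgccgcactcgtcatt
Tuba1a: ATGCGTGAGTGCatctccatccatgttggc
Tuba1b: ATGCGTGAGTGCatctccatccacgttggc
Tuba4a: ATGCGCGAGTGCatttcagtccatgtgggg
Tubb2a: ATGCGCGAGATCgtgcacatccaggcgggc
Tubb2b: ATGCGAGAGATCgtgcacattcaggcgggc
Tubb3: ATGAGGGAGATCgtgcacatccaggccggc
Tubb4a: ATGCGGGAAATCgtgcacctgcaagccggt
Tubb5: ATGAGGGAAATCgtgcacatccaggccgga

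The genes lie at chr5:142903115-142906754 (Actb), chr11:120345690-120348542 (Actg1), chr15:98949837-98953703 (Tuba1a), chr15:98931425-98934565 (Tuba1b), chr1:75214228-75219865 (Tuba4a), chr13:34074274-34078007 (Tubb2a), chr13:34126748-34130466 (Tubb2b), chr8:123411424-123422015 (Tubb3), chr17:57080066-57087782 (Tubb4a) and chr17:35833921-35838306 (Tubb5) of GRCm38. Tubb3 is on the plus strand and the other 9 are on the minus strand. Since fragments were counted over the whole gene body, introns contribute to these values: they make up 82.4% of the span of Tubb3 and 71.1% of that of Tubb4a, against 6.83% for Actg1 and 24.1% for Tubb5.

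Closely related members share long identical stretches. Between Actb and Actg1, 88.6% of 1125 coding bases are the same, between Tubb2a and Tubb2b 96.5% of 1335, and between Tuba1a and Tuba1b 98.3% of 1353. The stretches below, at the same coding positions in each pair, are examples and do not stand for the whole coding sequence, with capitals at the bases that differ within the pair: 3 of 30 between the actins at coding bases 562 to 591, 9 between Tuba1a and Tuba1b at bases 676 to 705, where their differences cluster, and 0 between Tubb2a and Tubb2b at bases 667 to 696.
Actb: tacctcatgaagatcctgacCgaGcgTggc
Actg1: tacctcatgaagatcctgacTgaAcgGggc
Tuba1a: aacctAaacAgGTtGatAGgTcaAattgtg
Tuba1b: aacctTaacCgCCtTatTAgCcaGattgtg
Tubb2a: ggcgatctcaaccacctggtgtcagccacc
Tubb2b: ggcgatctcaaccacctggtgtcagccacc

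Of all 100-base windows of a transcript, the share found exactly in the transcripts of other genes was 69.1% for Tuba1b, 51.1% for Actg1, 50% for Tuba1a, 36.9% for Tubb2a and 27.7% for Tubb2b. It was 1.10% for Actb and 0 for Tuba4a, Tubb3, Tubb4a and Tubb5. Fragments that align to several places were left out of the counts, so the levels of Tuba1b, Actg1, Tuba1a, Tubb2a and Tubb2b are uncertain. The effect of this loss on differences between groups was not tested. Tuba4a also overlaps Stk16 on the opposite strand over 1379 bases, and Tubb3 lies within the longer gene Gm20388 on its own strand. Counting did not use strand, so fragments of Stk16 in that overlap count towards Tuba4a. The count of Stk16 was 22.9 to 47.2% of that of Tuba4a, depending on the method. The count of Gm20388, which covers all 10592 bases of Tubb3, was 1804 to 24968% of that of Tubb3, so fragments of Gm20388 may be part of the Tubb3 count.

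In nuclear libraries, the 10 transcripts were lower in D2- than in D1-MSNs in the fitted values, and 6 of them passed the test. The drop was largest for the actins, and among tubulins it ranged from a log2 fold change of -2.04 for Tubb5 to -0.58 for Tuba1b. The D1 libraries varied widely: no. 1, 5 and 6 were above no. 2, 3 and 4 for every one of the 10 genes, and the latter were close to the D2 libraries for most tubulins. Levels are given as normalized CPM, counts scaled to the library size after TMM normalization within a method, and are not comparable between methods. The 10 genes together had 1381, 288, 301, 303, 1305 and 1023 normalized CPM in D1 libraries no. 1 to 6, and 169.96, 205, 233, 173 and 239 in the 5 D2 libraries. The lowest D1 library thus lay above the highest D2 library in this sum.

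Actb, the main cytoplasmic actin, had 489.5, 104, 79.0, 78.5, 383 and 363 normalized CPM in nuclear D1 libraries no. 1 to 6. In D2 libraries no. 1, 2, 3, 5 and 7 it had 28.5, 43.2, 51.2, 21.1 and 29.0. Every D2 library was below every D1 library, and the log2 fold change was -2.83 (SE 0.512, adjusted p = 0.00917, edgeR's quasi-likelihood test with Benjamini-Hochberg adjustment over 9271 genes). Actg1, the other cytoplasmic actin, had 141, 27.5, 22.8, 23.4, 102 and 140.4 in D1 libraries. In D2 libraries it had 9.14, 12.2, 17.3, 10.5 and 5.05, again without overlap (log2 fold change -2.74, SE 0.539, adjusted p = 0.00941). The actins split the D1 group the same way, with no. 1, 5 and 6 at least 3 times the level of the rest.

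Of the alpha-tubulins none passed the test in nuclear libraries. Tuba1a, the main alpha-tubulin of young neurons, had 57.8, 8.89, 7.71, 10.6, 72.3 and 58.9 normalized CPM in D1 libraries and 7.33, 10.1, 10.6, 8.17 and 17.05 in D2 libraries (log2 fold change -1.78, SE 0.583, adjusted p = 0.0510). D1 libraries no. 2, 3 and 4 lay within the D2 range. Tuba4a ranged from 15.4 to 83.4 in D1 and from 15.2 to 23.4 in D2 libraries (-1.21, SE 0.395, adjusted p = 0.0505). Tuba1b ranged from 1.10 to 19.6 in D1 and from 3.47 to 14.5 in D2 libraries (-0.58, SE 0.621, adjusted p = 0.545), and its highest D2 value came from the shallowest library, no. 7, with 3701255 counts.

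Of the beta-tubulins, 4 of 5 passed. When each of the 11 libraries was left out in turn, Tubb5 and both actins were called in 11 of 11 fits, Tubb2a and Tubb3 in 7 and Tubb4a in 5, and the number of the 10 genes called ranged from 3 to 8. Tubb5, which is used by many cell types, ranged from 17.6 to 117 normalized CPM in D1 and from 13.5 to 15.9 in D2 libraries, without overlap (log2 fold change -2.04, SE 0.481, adjusted p = 0.0148). Tubb3, the class of beta-tubulin that marks neurons, ranged from 22.2 to 66.0 in D1 and from 12.0 to 21.9 in D2 libraries, without overlap but with a gap of under 1 normalized CPM (-1.22, SE 0.326, adjusted p = 0.0250). Tubb2a, a major beta-tubulin of adult brain, ranged from 9.98 to 65.8 and from 6.00 to 11.4 (-1.95, SE 0.508, adjusted p = 0.0223). Tubb4a, a brain beta-tubulin also used by oligodendrocytes, had 334, 60.5, 111, 101, 354 and 209.8 in D1 and 53.2, 66.7, 83.1, 56.2 and 102 in D2 libraries (-1.44, SE 0.401, adjusted p = 0.0288). Tubb2a and Tubb4a overlapped between the groups. Tubb2b, a beta-tubulin of developing neurons, ranged from 5.08 to 52.8 and from 6.86 to 11.2 and did not pass (-1.11, SE 0.514, adjusted p = 0.148).

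Over all 9271 genes tested in nuclear libraries, 16.1% were called at an adjusted p of at most 0.05 and an absolute log2 fold change over 0.38, and 10.4% were called lower in D2-MSNs. The 6 of 10 genes called lower are to be read against that share. The median log2 fold change was -1.61 over the 10 genes and 0.04 over all genes. The groups did not overlap for 4 of the 10 genes, Actb, Actg1, Tubb3 and Tubb5, all lower in D2-MSNs. They did not overlap for 13% of all genes, and for 5.73% with D2 lower.

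Without the 3 high D1 libraries both actins stayed called, and no tubulin did. These libraries, no. 1, 5 and 6, had 13668, 7048 and 12637 normalized CPM of the 13 mitochondrial mRNAs together, while no. 2, 3 and 4 had 853, 939.9 and 579 and the D2 libraries 189 to 510.3. In a comparison added after the data were seen, with only nuclear libraries of at most 5000 normalized CPM of these mRNAs (3 D1 and 5 D2), Actb had a log2 fold change of -1.42 (SE 0.277, adjusted p = 0.0400) and Actg1 of -1.23 (SE 0.322, adjusted p = 0.0461), and both remained called. No tubulin was called: Tubb5 had -0.66 (adjusted p = 0.0892), Tubb2a -0.49, Tubb4a -0.49, Tubb3 -0.47 and Tuba4a -0.23, while Tuba1a had 0.08, Tubb2b 0.21 and Tuba1b 0.77. Of 11969 genes tested in that comparison, 783 were called.

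**Figure D1:**
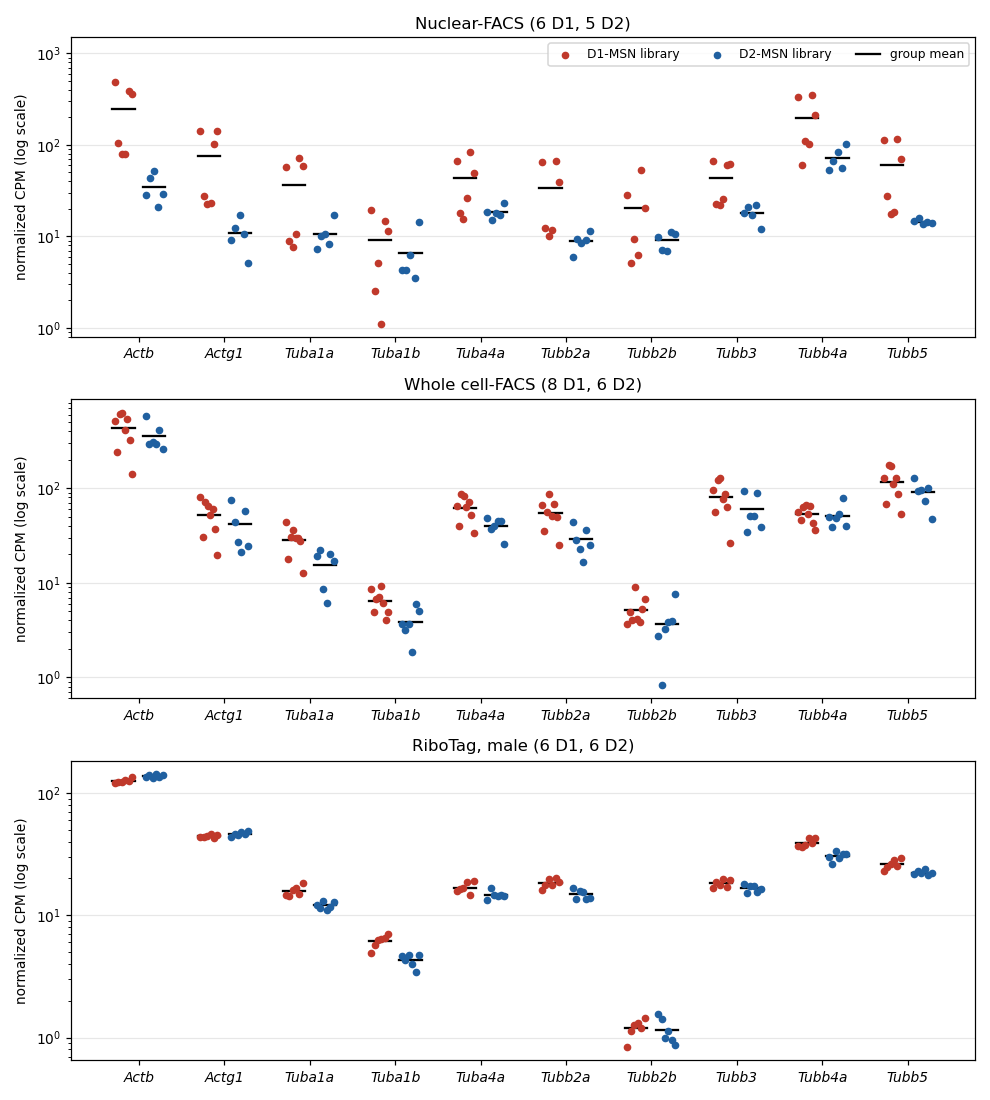
Normalized CPM (log axis, 1 scale per method) of the 10 genes in each nuclear, whole cell and male RiboTag library, with D1-MSN libraries in red, D2-MSN libraries in blue and the group mean as a line. In the nuclear panel 3 of the 6 D1 libraries stand above the rest for most genes, as for Actb at 363 to 489.5 against 78.5 to 104, whereas the RiboTag libraries of a group lie close together.

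Abundant cytosolic messages and mitochondrial mRNAs moved with the 10 genes across nuclear libraries, but not every list of cytoplasmic transcripts did. The 18 abundant cytosolic messages, among them those of glycolysis, translation, iron storage and protein folding, summed to 6951, 1619, 1260, 1402, 5872 and 4925 normalized CPM in D1 libraries no. 1 to 6 and to 618 to 903 in D2 libraries. The same libraries were high for these, for the mitochondrial mRNAs and for the actin and tubulin genes. Of the cytosolic messages tested, 15 of 17 were called lower in D2-MSNs and 0 higher (median -2.30), among them Ubb (-3.59), which encodes ubiquitin, and the translation factor Eef1a1 (-2.72). Of the 13 mitochondrial mRNAs, 10 were called lower (median -3.91). Over all genes tested, 10.4% were called lower in D2-MSNs. Nuclear-retained RNAs such as Malat1 and Meg3 showed another order, with 26619, 40175, 27848, 31346, 19789 and 17420 in D1 and 9987 to 24936 in D2 libraries, and 0 of 8 were called. The nuclear D1 libraries lowest in these RNAs, no. 5 and 6, were among the highest in the actin and tubulin genes. This inverse order did not hold in D2 libraries. Pearson's r between the log2 sums was -0.76 in the 6 D1, 0.88 in the 5 D2 and 0.17 in all 11 libraries. How much carried-over cytosol contributed to the difference was not tested.

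**Figure D2:**
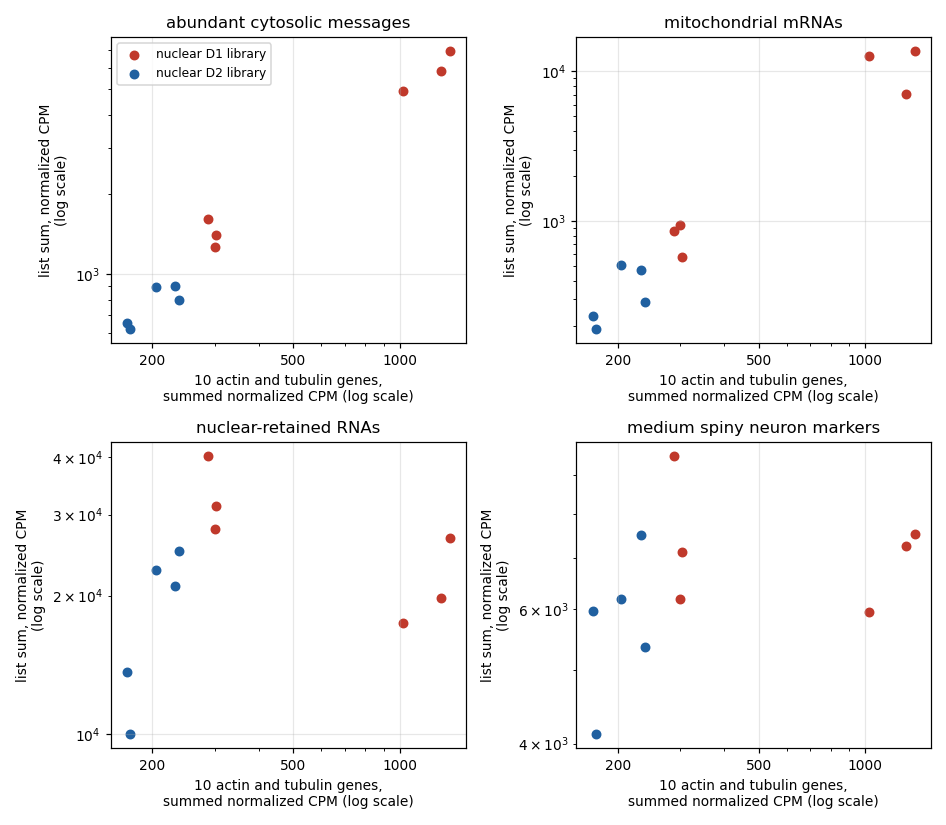
Summed normalized CPM of the 10 actin and tubulin genes (horizontal, log axis) against that of 4 other gene lists (vertical, log axis) in the 11 nuclear libraries, D1-MSNs in red and D2-MSNs in blue. D1 libraries no. 1, 5 and 6, at 1023 to 1381 on the horizontal axis, are also highest for cytosolic and mitochondrial messages, but not for nuclear-retained RNAs or MSN markers.

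Proteins that work on actin and microtubules also included transcripts called lower in nuclear D2-MSNs. Among 18 actin-binding genes tested in nuclear libraries, 8 were called lower in D2-MSNs and 0 higher (median -0.56), with the filament-severing cofilin Cfl1 at -2.39, the monomer-binding thymosins Tmsb4x at -2.38 and Tmsb10 at -1.84, and profilin Pfn2 at -1.74. Among 17 microtubule-associated genes, 9 were called lower and 0 higher (median -0.95), with Map1a at -2.37, the kinesin Kif5a at -1.83, the tubulin-binding Stmn1 at -1.65 and Map1lc3a at -1.59. Among 17 genes for the folding and modification of actin and tubulin, 1 was called lower (the chaperonin subunit Tcp1, -1.45) and 1 higher (the detyrosinating enzyme Vash1, 0.70), and the median was -0.14. The sum over all 28 listed genes of this kind, not all of them tested, went the other way. It was 1955 to 3019 normalized CPM in D1 and 3175 to 4183 in D2 libraries. The part of the background counts described below in this sum was not tested. Over all 9271 genes tested, 16.1% were called and 10.4% were called lower, and the calls in the folding and modification list did not exceed these shares. These lists were fixed with earlier results of the data known.

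Markers of other cells also differed between the nuclear groups. Markers of endothelial cells summed to 46.9 to 391 normalized CPM in D1 and 481 to 885 in D2 libraries, and those of mural cells to 39.8 to 267 and 320.4 to 552. Those of microglia summed to 176 to 407 and 408 to 591, those of astrocytes to 247 to 554 and 447 to 566, and those of oligodendrocytes to 848 to 2238 and 888 to 1786. None of the 26 markers in these lists was at 0 in either group, but background counts, described in the next paragraph, can also give values above 0. That background was at 0.0205 to 0.401 normalized CPM per kilobase in nuclear D1 and 0.578 to 1.06 in nuclear D2 libraries. Its part in these sums was not tested. Oligodendrocyte markers, which bear on Tubb4a, overlapped between the groups but moved with the 10 genes within them: they were at 2103 to 2238 in the 3 high D1 libraries and at 848 to 1829 in the other 3, and the 5 D2 libraries had the same order in both sums. Of these 6 markers 1 was called, Cnp, lower in D2-MSNs (-0.96), where 16.1% of all genes were called and 10.4% were lower. The part of these cells in the difference was not tested.

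Low-level counts spread over the genome took a larger share of the counts in D2 nuclear libraries. Counts per kilobase on 1930 olfactory and vomeronasal receptor genes, which MSNs are not known to use, were multiplied by each gene's span. This background equalled a median of 7.56% of the Actb count in D2 and 0.178% in D1 nuclear libraries, 51.1% and 2.90% for Tubb3, and 42.1% and 5.19% for Tuba1b. In single D2 libraries it reached 53.5% of the Tubb3 count and 95.7% of the Tuba1b count, so the nuclear D2 levels of both are uncertain. In whole cell D2 libraries its median was 31.6% of the Tubb2b and 28.5% of the Tuba1b count, and it reached 171% and 82.8%. The whole cell levels of Tubb2b and Tuba1b are therefore uncertain too. With this background subtracted from the nuclear libraries, 8 of the 10 genes were called lower in D2-MSNs, all but Tuba1b and Tubb2b, where 1056 of all 10868 genes were called lower and 1220 higher.

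In whole cell libraries, none of the 10 transcripts differed between the cell types past the test, although the fitted difference was below 0 for each of them, for Tubb4a only under some settings. The fit was edgeR's quasi-likelihood test with Benjamini-Hochberg adjustment over 16385 genes, of which 1.13% were called and 0.769% were lower, and it gave 3 of the 10 genes an unadjusted p under 0.05 (DESeq2 called 1 of the 10). Whole cell levels varied widely within a cell type: Actb ranged from 142 to 632 normalized CPM with a median of 468 in the 8 D1 libraries, and from 259 to 582 with a median of 303 in the 6 D2 libraries (log2 fold change -0.26, SE 0.279, adjusted p = 0.784). The groups overlapped for all 10 genes, against non-overlap in 1.21% of all genes. In simulated whole cell data the test recovered 39% of genes changed by a log2 of 1.5, so a difference of that size could be missed.

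The tubulins nearest to a call in whole cells were Tubb2a, Tuba4a and Tuba1a. Tubb2a had a lowest, median and highest level of 25.0, 53.5 and 86.2 normalized CPM in D1 and of 16.7, 26.7 and 44.3 in D2 libraries (log2 fold change -0.93, SE 0.253, adjusted p = 0.0708). Tuba1a ranged from 12.9 to 43.9 and from 6.08 to 22.1 (-0.89, adjusted p = 0.150), and Tuba4a from 34.0 to 87.2 and from 25.8 to 48.2 (-0.64, adjusted p = 0.130). Tubb4a was nearly level, at a median of 54.6 in D1 and 49.2 in D2 libraries. Among the other genes of this system, the tubulin-binding stathmins Stmn1 (-2.40) and Stmn2 (-1.40) and the prefoldin Pfdn5 (-1.19) were called lower in D2-MSNs.

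In RiboTag libraries, which sample mRNA on ribosomes, the actins and the tubulins moved apart by small amounts: in males, the fitted difference was above 0 for both actins and below 0 for all 8 tubulins, and in females likewise. Of the 10 genes, 2 were called in males, Tuba1b and Tuba1a, and 1 in females, Tubb2a, each lower in D2-MSNs. These calls are to be read against 3.9% of 6800 genes called in males (2.6% lower) and 2.58% of 7083 genes in females (1.57% lower). The spread between libraries was far smaller than in sorted material, with the sum of the 10 genes at 293 to 337 normalized CPM in male D1, 294 to 307 in male D2, 291 to 345 in female D1 and 306 to 322 in female D2 libraries.

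In males, Tuba1b had a lowest, median and highest level of 4.92, 6.32 and 7.10 normalized CPM in D1 and of 3.45, 4.47 and 4.77 in D2 libraries (log2 fold change -0.51, SE 0.0917, adjusted p = 0.000473). Tuba1a had 14.4, 15.5 and 18.3 in D1 and 11.1, 11.9 and 13.1 in D2 libraries (-0.39, SE 0.0623, adjusted p = 0.000108). Neither gene's groups overlapped, and those of Tubb4a did not either, with 36.0, 38.2 and 43.1 against 26.1, 30.8 and 33.6. These 3 genes compare with 4.57% of all genes without overlap, and 2.5% with D2 lower. Tubb4a had an adjusted p of 0.000122 at a log2 fold change of -0.36, short of the limit of 0.38. Tubb2a (-0.30, adjusted p = 0.00203) and Tubb5 (-0.23, adjusted p = 0.00751) were likewise past the adjusted p only. Actb had 121, 124 and 136 in D1 and 134, 138 and 142 in D2 libraries (0.13, SE 0.0411, adjusted p = 0.0458), also short of the fold. By adjusted p alone, 1 of the 10 genes was higher and 5 were lower, against 9.32% of all genes past it (4.09% higher and 5.24% lower).

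In females, Tubb2a had 18.9, 19.7, 21.1, 17.8 and 17.7 normalized CPM in D1 libraries no. 1, 2, 4, 5 and 6 and 12.8, 14.0, 13.5, 12.8 and 13.9 in D2 libraries no. 1, 2, 3, 5 and 6 (log2 fold change -0.51, adjusted p = 9.22e-06). Every D2 library was lower. Tubb3, Tubb4a and Tubb5 did not overlap between the groups either, with Tubb4a at 34.0 to 40.4 in D1 and 26.8 to 33.5 in D2 libraries (-0.29, adjusted p = 0.0109). This makes 4 of 10 genes without overlap, against 4.91% of all genes, and 2.57% with D2 lower. By adjusted p alone 4 genes were lower, against 4.52% of all genes past it and 2.56% lower. Tubb2b had a fitted difference of -0.80 that did not pass (adjusted p = 0.0847) at a mean level of 1.66 and 0.972, the lowest of the 10 genes. Tuba1b, called in males, had -0.20 in females (adjusted p = 0.292), and Actb had 0.19 (adjusted p = 0.0562).

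The difference between D1- and D2-MSNs was not shown to differ between the sexes for any of the 10 genes by edgeR's quasi-likelihood test with Benjamini-Hochberg adjustment. The interaction reached an unadjusted p under 0.05 in 3 of them: Tuba1b (0.31, SE 0.133), Tubb2a (-0.21, SE 0.0899) and Tubb2b (-0.72, SE 0.316), with adjusted p of 0.654 or more. Averaged over the cell types, 0 of the 10 genes were called between female and male libraries, although all 10 fitted differences were below 0, between -0.17 for Tuba1b and -0.02 for Tubb2b, and 7 had an unadjusted p under 0.05. DESeq2's Wald test called 0 as well. Of 7195 genes tested, 0.0834% were called between the sexes.

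In the other actin and tubulin genes, the male RiboTag libraries had Tubb4b (-0.48) and Tuba1c (-0.39) called lower in D2-MSNs, 2 of 4 tested, and the female libraries 0 of 4. Stmn1 and Stmn2, which bind tubulin dimers, were called lower in D2-MSNs of males (-1.17 and -0.95) and of females (-0.97 and -1.04), and no other gene among 19 microtubule-associated genes was called. Of 19 actin-binding genes and 20 genes of folding and modification, none was called in either sex. Over all genes tested, 3.9% were called in males (2.6% lower) and 2.58% in females (1.57% lower).

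**Figure D3:**
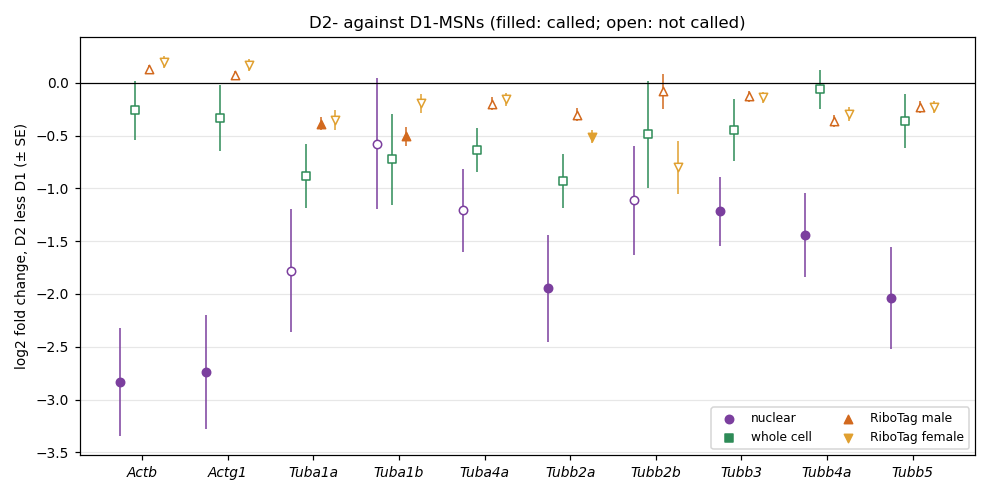
Log2 fold change of D2- against D1-MSNs with its standard error for each of the 10 genes in nuclear, whole cell and RiboTag libraries, filled where called. Nuclear values reach -2.83 for Actb, while RiboTag values lie between -0.80 and 0.19 and separate the actins, above 0, from the tubulins.

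The nuclear difference between cell types was larger than that in the other methods when tested directly, and most of these calls were lost without the 3 high nuclear D1 libraries. In a fit over all male libraries, the difference of D2 against D1 was lower in nuclear than in whole cell libraries for 9 of the 10 genes (21.9% of 29901 genes called, 15.8% lower), from -3.86 for Actb (adjusted p = 0.000192) to -1.87 for Tuba4a. It was lower in nuclear than in RiboTag libraries for 9 of 10 as well (14.6% called, 12.9% lower), from -4.13 for Actb to -2.21 for Tuba4a. Tuba1b was the exception in both (-1.25 and -1.31). These contrasts share the nuclear libraries. With these 3 libraries left out, 2 genes were called against whole cell, Actb (-2.08, adjusted p = 0.0169) and Actg1 (-1.86, adjusted p = 0.0441), and 1 against RiboTag, Actb (-2.35, adjusted p = 0.0393). The tubulins then lay between -1.24 for Tubb4a and 0.63 for Tuba1b against whole cell, and between -1.24 for Tubb5 and 0.58 for Tuba1b against RiboTag. Calls over all 29839 genes fell as well, to 2867 against whole cell (2505 lower) and 780 against RiboTag (687 lower). As the libraries left out were the highest D1 libraries for each of the 10 genes, this choice by itself makes the nuclear difference smaller. Between whole cell and RiboTag libraries no such difference was called: 0 of the 10 genes were called, 0 had an unadjusted p under 0.05, and 0.12% of all genes were called (edgeR).

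Set against whole cells, nuclear RNA of D2-MSNs had lower levels of 7 of these transcripts, while 0 were called lower in nuclear RNA of D1-MSNs. The latter depends on the scale: with total counts 6 of the 10 genes were called lower in D1-MSNs, as were 19287 of all 29901 genes. Since the median gene moved between methods, log2 values here are relative to the median of all 29901 genes, which was -0.32 for nuclear against whole cell in D1-MSNs, 0.14 in D2-MSNs, -1.86 and -1.87 for RiboTag against whole cell, and 2.04 and 2.13 for nuclear against RiboTag. In D2-MSNs 7 of the 10 genes were called lower in nuclei (20.2% called, 16.5% lower): Actb (-4.33), Tubb5 (-3.63), Actg1 (-2.93), Tubb3 (-2.77), Tubb2a (-2.76), Tuba4a (-2.10) and Tuba1a (-1.58). Tubb4a (-0.47), Tuba1b (-0.37) and Tubb2b (0.35) were not called. Calls and adjusted p in all comparisons between methods belong to the fitted values before the median was subtracted.

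In D1-MSNs, 2 genes were called higher in nuclei than in whole cells, Tubb2b (2.82, adjusted p = 2.17e-05) and Tubb4a (2.66, adjusted p = 3.02e-06), and 0 lower, where 19.1% of all genes were called, 10.7% higher and 8.44% lower. The other 8 lay between -0.21 for Tubb3 and 1.35 for Tuba1b. The part of introns and of oligodendrocyte RNA in the Tubb4a value was not tested. With the 3 high D1 libraries left out, 6 genes were called lower and Tubb4a higher: Tubb5 had -1.98 (adjusted p = 0.000389), Tubb2a -1.85, Actb -1.83, Tubb3 -1.37, Tuba1a -1.23 and Tuba4a -1.19, and Tubb4a had 1.20 (adjusted p = 0.0410). Of all 29839 genes, 1778 were called lower and 2299 higher in that comparison. The 6 genes lower in these 3 D1 libraries were also called lower in the D2 libraries, against other whole cell libraries.

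Ribosome-bound RNA held more of each of the 10 transcripts than whole cells did, relative to the median gene. Values ranged from 3.92 for Tubb3 to 6.08 for Tuba1b in D1-MSNs and from 3.97 for Tubb5 to 6.14 for Tuba1b in D2-MSNs, and all 10 were called in both (80.5% and 81.2% of all genes called, 21.3% and 21.9% higher). With scaling to total counts, where the median gene moved to -5.44 and -5.10, 0 were called higher and 6 lower in D1-MSNs and 2 higher and 3 lower in D2-MSNs, so the direction depends on the scale. On that scale 29317 of all 29901 genes were called lower in D1-MSNs and 28867 in D2-MSNs. Nuclear against RiboTag, 9 of 10 genes were called lower in D1-MSNs (79.6% called, 20.2% lower), all but Tubb2b, and 10 of 10 in D2-MSNs (86.3% called, 26.3% lower). Tubb2b in D1-MSNs was at -1.76 relative to the median gene, but at 0.28 before the median was subtracted, which is the value tested. With total counts the calls became 1 higher and 4 lower in D1-MSNs, where 27131 of all genes were called higher and 289 lower, and 1 higher and 7 lower in D2-MSNs, where 27707 were called higher and 565 lower.

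**Figure D4:**
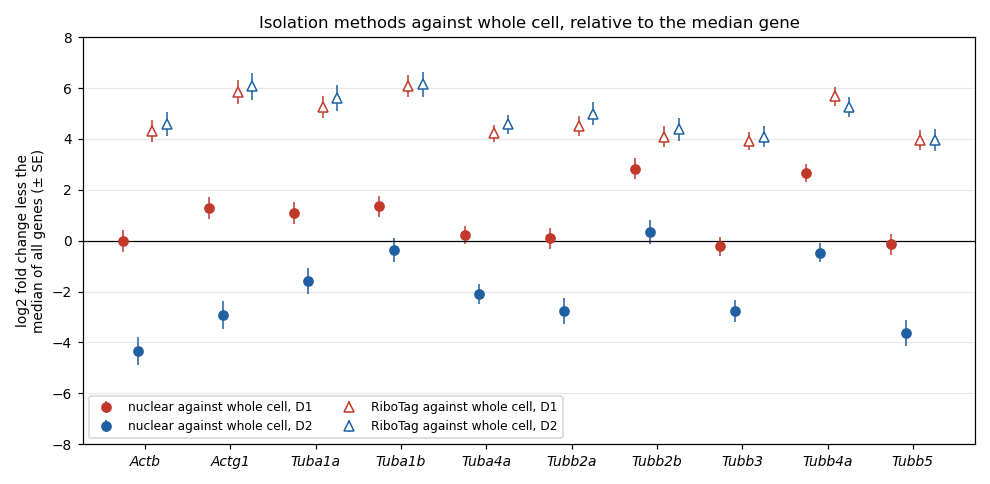
Log2 fold change of nuclear (filled) and RiboTag (open) against whole cell libraries, less the median of all genes, with standard errors, for D1-MSNs in red and D2-MSNs in blue. Nuclear values of D2-MSNs run from -4.33 for Actb to 0.35 for Tubb2b and lie below those of D1-MSNs for each gene, and RiboTag values are all above 3.9 on this scale.

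The make-up of the actin and tubulin pool, which does not depend on scaling between libraries but includes the receptor-gene background, differed between methods. In nuclear D2 libraries that background equalled a median of 7.56% of the Actb and 6.69% of the Tubb4a count. It was 51.1% for Tubb3, 42.1% for Tuba1b and 28.6% for Actg1, and its part in the shares was not tested. Of the counts of the 10 genes, Actb held 47.1% ± 3.79 (SD, n = 8) for whole cell D1-MSNs and 51.4% ± 2.61 (SD, n = 6) for D2-MSNs. Its nuclear share was 31.4% ± 4.79 (SD, n = 6) for D1-MSNs and 16.8% ± 4.70 (SD, n = 5) for D2-MSNs. In nuclear libraries the Actb share was 35.5, 36.0, 26.3, 25.9, 29.3 and 35.5% in D1 and 16.8, 21.1, 22.0, 12.2 and 12.2% in D2 libraries. The groups did not overlap, also when only D1 libraries no. 2, 3 and 4 were set against the D2 libraries. In RiboTag libraries the share was 40.4% ± 0.843 (SD, n = 6) in male D1 and 45.8% ± 0.833 (SD, n = 6) in male D2, and 41.0% ± 0.547 (SD, n = 5) and 47.0% ± 1.77 (SD, n = 5) in females, without overlap and in the opposite direction.

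Tubb4a had its largest share in nuclei. It held 6.57% ± 1.77 (SD, n = 8) of D1 and 7.67% ± 1.77 (SD, n = 6) of D2 whole cell counts, 27.2% ± 6.75 (SD, n = 6) of D1 and 34.9% ± 4.60 (SD, n = 5) of D2 nuclear counts, and 12.5% ± 0.421 and 10.1% ± 0.869 (SD, n = 6 each) in male RiboTag libraries. Ratios between related members shifted as well. For each count of Tubb2a, D1-MSNs had 0.110 ± 0.0709 counts of Tubb2b by whole cell (SD, n = 8), 0.607 ± 0.214 by nuclear (SD, n = 6) and 0.0654 ± 0.00901 by male RiboTag isolation (SD, n = 6), and nuclear D2-MSNs had 1.08 ± 0.368 (SD, n = 5). For each count of Tubb3, D1-MSNs had 0.747 ± 0.285 counts of Tubb4a by whole cell, 4.34 ± 1.18 by nuclear and 2.14 ± 0.117 by male RiboTag isolation (SD, same n). For each count of Actb, they had 0.124 ± 0.0161 counts of Actg1 by whole cell, 0.299 ± 0.0451 by nuclear and 0.351 ± 0.0122 by male RiboTag isolation (SD, same n). The receptor-gene background, at a median of 33.2% of the Tubb2b count in nuclear D2 and 32.4% in whole cell D1 libraries, is part of these ratios.

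**Figure D5:**
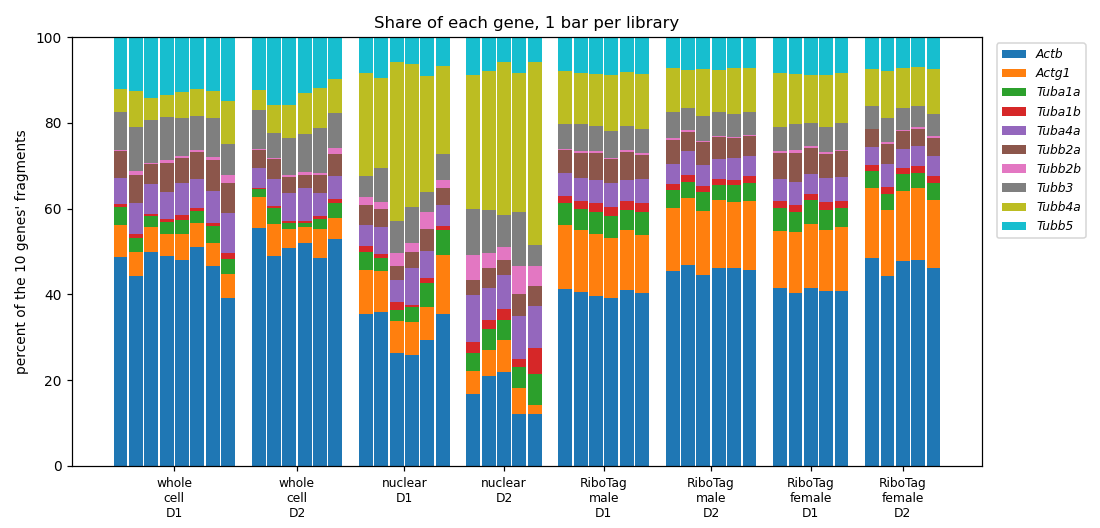
Share of each gene in the summed counts of the 10 genes, in percent, with 1 bar per library. Actb holds 47.1% and 51.4% in whole cell and 31.4% and 16.8% in nuclear D1 and D2 libraries on average, Tubb4a holds 27.2% and 34.9% in nuclear ones, and the RiboTag bars of a group are nearly alike.

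Per kilobase of gene span, Actb stood first in every group. In whole cell D1 libraries the means were 118 ± 49.4 normalized CPM per kilobase for Actb (SD, n = 8), 26.5 ± 10.2 for Tubb5, 18.3 ± 7.399 for Actg1, 14.7 ± 5.17 for Tubb2a, 11.0 ± 3.39 for Tuba4a, 7.72 ± 3.22 for Tubb3, 7.41 ± 2.51 for Tuba1a, 6.97 ± 1.45 for Tubb4a, 2.06 ± 0.578 for Tuba1b and 1.40 ± 0.497 for Tubb2b. From Tubb5 to Tubb4a, neighbours in this order differed by less than the larger of their SDs. In nuclear D2 libraries the order was Actb (9.51 ± 3.37, SD, n = 5), Tubb4a (9.35 ± 2.62), Actg1 (3.81 ± 1.57), Tubb5 (3.31 ± 0.213), Tuba4a (3.28 ± 0.534), Tuba1a (2.76 ± 0.988), Tubb2b (2.46 ± 0.547), Tubb2a (2.37 ± 0.519), Tuba1b (2.09 ± 1.45) and Tubb3 (1.70 ± 0.363), and Actb and Tubb4a did not differ beyond their spread. Per kilobase of exon, Tubb4a came first in that group, at 32.4 ± 9.08 against 12.9 ± 4.58 for Actb, since introns make up most of its span. In male RiboTag D1 libraries Actb (34.6 ± 1.52 per kilobase of span, SD, n = 6) and Actg1 (15.5 ± 0.446) led, Tubb5 (5.97 ± 0.541), Tubb4a (5.07 ± 0.394) and Tubb2a (4.91 ± 0.421) followed, and Tubb2b was lowest (0.323 ± 0.0547).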

How the data were processed

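Paired-end reads of stranded libraries depleted of ribosomal RNA were aligned by the authors with HISAT2 2.0.5. The authors deposited raw fragment counts per Ensembl gene, made with featureCounts (version not given in the sources used here) over whole gene bodies, without strand, counting a fragment for every gene it overlaps and leaving out multiply aligned ones. From the 49 columns, 2 lanes of whole cell D2 no. 3 and a repeat of whole cell D1 no. 1 were summed, which left 47 libraries. Which labelled sample that repeat belongs to was not settled by the labels, and its effect was tried by keeping it apart and leaving it out. Here counts were tested in R 4.3.3 with edgeR 4.0.16 (TMM, quasi-likelihood test, Benjamini-Hochberg over all genes tested). Positive values are higher in D2-MSNs where cell types are compared, in the first-named method where methods are, and in females where sexes are. Standard errors are the absolute log2 fold change over the square root of F. Genes needed over 1 FPM in 2 libraries, and within a method an FPKM of at least 1 in 1 library and at most 50000 in all (RiboTag: 0.1 in 2 libraries). Between methods only the FPM filter applied, to 29901 genes. A call needed an adjusted p of at most 0.05 and an absolute log2 fold change over 0.38. The test was checked on simulated data.

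The 10 genes were all named, and of every other list at most the 4 called genes with the largest change. The genes and lists were chosen with earlier results of these data known. Alternatives were DESeq2 1.42.0, its size factors, total counts, other filters, adjusted p alone, the replicate number as a block, the repeat kept apart or left out, background subtraction and leaving out each library. Subsets of nuclear libraries by depth or mitochondrial mRNA were chosen after seeing the data. Gene models and sequences came from GENCODE M21 on GRCm38. Counting intervals were not needed, since every group has replicates.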

Additional observations from a re-analysis of the deposited data

Results flagged for a closer look

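The cell type difference of 9 genes differed between nuclear and whole cell libraries by the interaction in edgeR's quasi-likelihood fit over all male libraries (log2, nuclear less whole cell). Actb had -3.86, Actg1 -3.77, Tuba1a -2.22, Tuba4a -1.87, Tubb2a -2.39, Tubb2b -2.02, Tubb3 -2.10, Tubb4a -2.67 and Tubb5 -3.03. The interaction with RiboTag picked out the same 9 genes (nuclear less RiboTag), with Actb at -4.13, Actg1 at -3.99, Tuba1a at -2.57, Tuba4a at -2.21, Tubb2a at -2.87, Tubb2b at -2.30, Tubb3 at -2.26, Tubb4a at -2.24 and Tubb5 at -3.05. Both sets of values share the nuclear libraries and include D1 libraries no. 1, 5 and 6, which were high in mitochondrial mRNA. Without these 3 libraries, 2 of the 9 genes stayed called against whole cell and 1 against RiboTag, while calls over all 29839 genes were 2867 and 780.

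A single library lay far from the others of its group, by Dixon's ratio at the 95% level, in 2 of 80 groups tested, where chance gives about 1 in 20. Tuba1b had 14.5 normalized CPM in nuclear D2 library no. 7, against 3.47 to 6.22 in the other 4 libraries of that group. Tuba1b also had 4.01 normalized CPM in female RiboTag D2 library no. 1, below the 4.69 to 4.90 of the other 4.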

How the results depend on the processing

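The deepest nuclear libraries, with at least 35944738 counts, were 2 D1 and 4 D2. The number of the 10 genes called lower in nuclear D2-MSNs was 6. It was 0 with the replicate block, 0 with these deepest nuclear libraries only (0 genes called in all, lowest adjusted p 0.138) and 2 with libraries low in mitochondrial mRNA, where Tuba1a reversed to 0.077, Tuba1b to 0.77 and Tubb2b to 0.21. That subset gave 1 gene higher and 6 lower between nuclear and whole cell D1 libraries, and 2 and 1 genes lower in the interactions with whole cell and RiboTag, where Tuba1a (0.074) and Tuba1b (0.63 and 0.58) reversed. In whole cells, DESeq2's Wald test and the repeat kept as its own library each called 1 gene lower in place of 0. Tubb4a there reversed to 0.084 with DESeq2, 0.16 with its size factors, 0.14 with the FPM filter only, 0.15 with no filter, and ranged from -0.22 to 0.12 with a library left out. With size factors Tubb5 (0.078, whole cell less RiboTag) and Tubb3 (0.00414, female less male) reversed too. In RiboTag males, no filter called 1 gene lower and adjusted p alone 5 lower and 1 higher, and in females these called 2 and 4 lower. Total counts gave 6 genes lower for nuclear against whole cell in D1-MSNs, 0 higher and 6 lower (D1) and 2 higher and 3 lower (D2) for RiboTag against whole cell, and 1 higher and 4 lower (D1) and 1 higher and 7 lower (D2) for nuclear against RiboTag. The cause was not tested.

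Leaving out 1 library at a time gave 3 to 8 genes lower in nuclear D2-MSNs (3 without D2 library no. 1, 3, 5 or 7), 0 to 2 in whole cells (2 without D1 no. 8), 1 to 3 lower and 0 to 0 higher in RiboTag males, and 1 to 2 lower in females. Nuclear against whole cell it gave 2 to 5 higher and 0 to 0 lower in D1-MSNs and 6 to 7 lower in D2-MSNs. Nuclear against RiboTag it gave 9 to 9 lower in D1-MSNs and 10 to 10 in D2-MSNs, and 0 to 0 higher in both.

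Over all genes, the nuclear comparison called 1491 (527 higher and 964 lower), but 4597 with DESeq2's size factors (316 higher and 4281 lower, median -0.77), 8082 with the FPM filter only, 9400 with none, 2276 with background subtracted, 783 with libraries low in mitochondrial mRNA and 466 to 2076 with a library left out. The whole cell comparison called 185, but 711 with DESeq2, 38 with size factors, 35 and 34 with less filtering, 367 with the repeat apart and 63 to 644 with a library left out. RiboTag males had 265 calls, 481 and 681 with less filtering and 634 by adjusted p alone, and females 183, 279, 495 and 320. Libraries that share a number did not deviate together (correlations of -0.29 to 0.21), so these values gave no sign of pairing by number. Few numbers are shared within a method, so the check cannot settle whether the number marks a shared batch. With the number as a block, 0 genes were called in nuclear, 91 in whole cell, 261 in RiboTag male and 154 in RiboTag female libraries. In the nuclear fit the block left few residual degrees of freedom.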

Other observations

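The genes whose pattern was most like that of the 10 genes were named by Pearson's r between their log2 normalized CPM and the mean standardized profile of the 10. Over all 47 libraries and 27840 genes, these were Ap2m1 (0.995), a subunit of the clathrin adaptor, the glycolytic enzyme Eno1 (0.993), Ywhaz (0.992), a 14-3-3 protein, the G protein subunit Gng3 (0.991) and the antisense gene A230083G16Rik (0.991). Of the 10 genes themselves, Tubb2b was least like the common profile (0.778) and Tuba4a most (0.988). Over the 11 nuclear libraries and 9271 genes, they were Gng3 (0.992), A230083G16Rik (0.992), the ferritin subunit Fth1 (0.991), the GTPase Arf3 (0.989) and the ribosomal protein gene Rpl26 (0.987). The libraries fall into separate clusters by method and, among nuclear libraries, by D1 libraries no. 1, 5 and 6, so these values describe those steps. Counting did not use strand, so A230083G16Rik cannot be told apart from a gene it overlaps.

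Of the 16 further actin and tubulin genes, which include the muscle actins, gamma-tubulins and rarer isotypes, 3 were tested in nuclear libraries and 0 were called. The sum of all 16, most of which failed the filter, was 51.6 to 183 normalized CPM in nuclear D1 and 225 to 359 in nuclear D2 libraries, where the receptor-gene background was also larger.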
